A study of Mus musculus with 12 samples.

Results

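The genes described here encode enzymes that write and erase marks on histones, the motors that move nucleosomes, and the proteins that read the marks. They were taken by symbol from the authors' deposited table of tested genes, as symbols that begin with Kdm, Kmt, Hdac, Chd, Arid, Brd or Cbx and a digit, those that begin with Setd, Smarc or Ezh, and Sirt1 and Sirt3 to Sirt7. In all, 102 of the table's 15478 genes were members, in 11 families: 15 Kdm, 8 Kmt, 10 Setd, 2 Ezh, 11 Hdac, 6 Sirt, 14 Smarc, 10 Chd, 9 Arid, 9 Brd and 8 Cbx genes. The rule reads names and no measured value. It therefore also takes in Brd3os, Brd8dc and Smarce1-ps1, which carry a family name without being a known modifier or remodeler, and the last of these is the single member of the 102 that is not annotated as protein coding.

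The cells were neural precursors taken from adult female C57BL/6 mice and grown in culture without differentiation, the dividing cells that can give neurons, astrocytes and oligodendrocytes. Cells exposed to 100 µM hydrogen peroxide for 1 h (4 samples), cells exposed to it for 8 h (4 samples) and control cells given phosphate-buffered saline as a sham exposure (4 samples) were compared by sequencing of poly-A RNA, and each of 4 animals is stated to have given all 3. The authors' deposited table holds 1 log2 fold change, test statistic and p-value per gene and comparison, and no value of any single sample, so values by sample cannot be shown and the depth is unknown. The tables are named as having outlier samples removed, so at most 4 samples per group stand behind each test. Throughout, ± gives an implied standard error, which is the absolute log2 fold change over the root of the likelihood ratio that the authors give. A gene is said to have risen or fallen where its Benjamini-Hochberg adjusted p over all 15478 genes is below 0.05. When the control cells were collected is not stated in these sources, so peroxide and time in culture cannot be told apart in either comparison with control.

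DNA in the nucleus is wound around histones, and the chemical state of the histone tails helps to set which genes can be read. Methyltransferases (Kmt, Setd, Ezh) add methyl groups to lysines and demethylases (Kdm) take them off, while deacetylases (Hdac) and sirtuins (Sirt) remove acetyl groups. Remodelers (Smarc, Chd and their Arid partners) use ATP to slide or evict nucleosomes, and bromodomain (Brd) and chromodomain (Cbx) proteins bind acetylated or methylated histones. In neural precursors, SWI/SNF and Polycomb complexes are known for keeping cells dividing and for the order in which they form neurons and glia.

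After 1 h of peroxide these genes were mostly lower than in control cells, and by little. The authors' deposited table has 43 members (42.2%) that fell and 12 (11.8%) that rose at 1 h, while 22.2% of all genes fell and 20.5% rose. The median log2 fold change of the members at 1 h was -0.11 in the authors' deposited table, against 0.01 over all genes. The members are long genes, and against genes of like exon length in the authors' deposited table the median difference was -0.03. At 8 h the split was nearer to that of all genes: 35 members (34.3%) fell and 22 (21.6%) rose against control in the authors' deposited table, while 28.2% of all genes fell and 27.4% rose. Between the exposures, 42 members (41.2%) were called higher and 30 (29.4%) lower at 8 h than at 1 h, while 30.3% of all genes were higher and 32.4% lower, again in the authors' deposited table. Changes of at least 2-fold were rare, with 2 members at 1 h and 1 at 8 h against control, and 3 between the exposures, in the authors' deposited table. Over all 15478 genes the counts of such changes were 652, 1319 and 1700 in the same order. In bulk RNA such as this, fewer cells of a type and less RNA per cell cannot be told apart.

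Counts differed by family. At 1 h, the authors' deposited table gives falls for 9 of 15 Kdm genes, 6 of 10 Chd genes, 7 of 14 Smarc genes, 5 of 10 Setd genes, 4 of 8 Kmt genes and 4 of 9 Arid genes. By contrast 3 of 11 Hdac genes, 3 of 9 Brd genes, 2 of 8 Cbx genes, 0 of 6 Sirt genes and 0 of 2 Ezh genes fell at 1 h in the authors' deposited table. At 8 h the Cbx genes stood together, with 8 of 8 lower than in control cells in the authors' deposited table, while 1 of 15 Kdm genes was lower and 4 were higher. The differences between families were not tested.

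**Figure D1:**
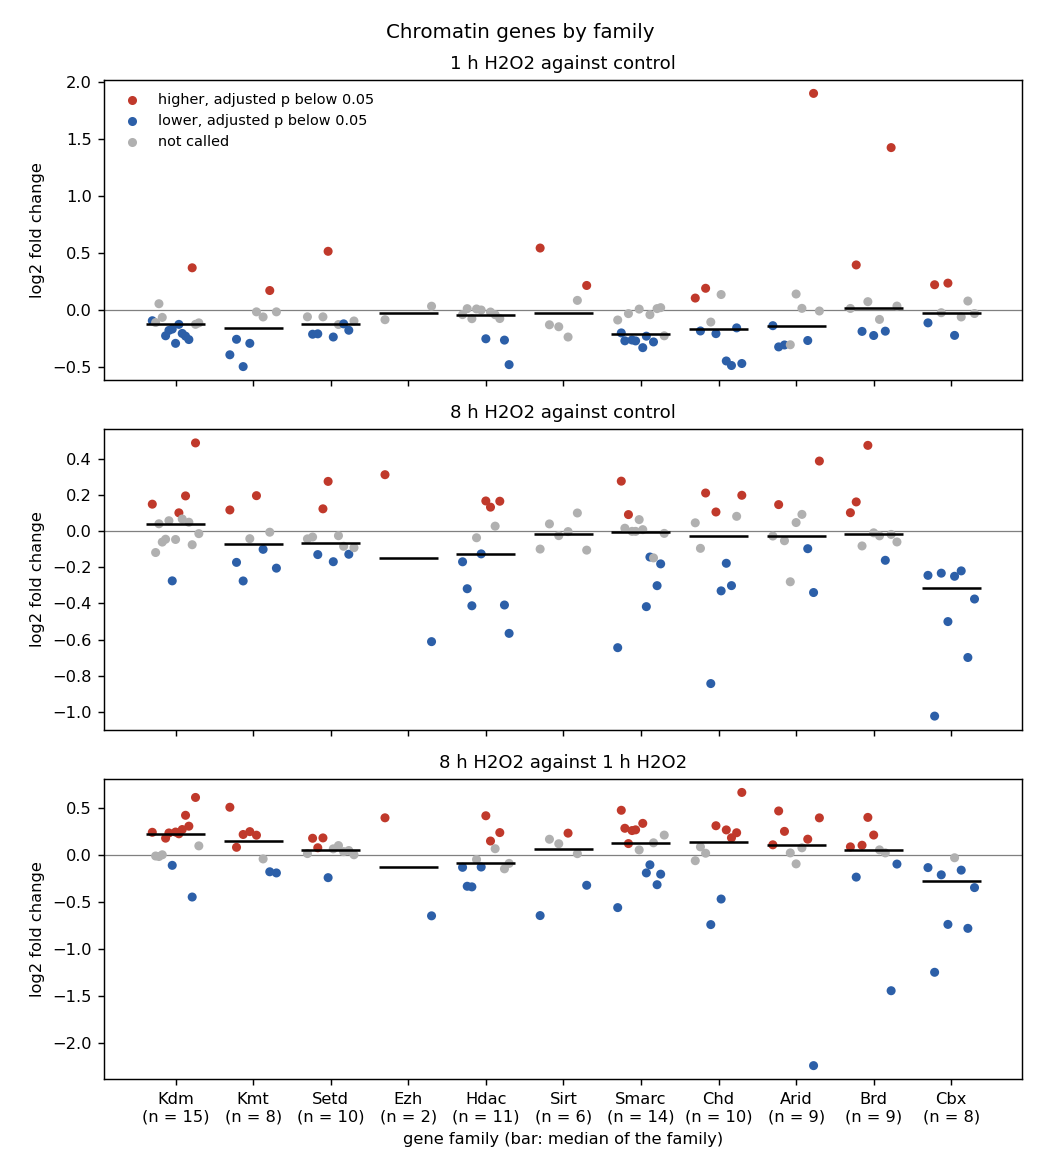
Log2 fold change of each member (1 point per gene, ordered by symbol within its family) in the 3 comparisons of the authors' deposited table, with a bar at the median of the family and red, blue or grey for higher, lower or not called at an adjusted p below 0.05. Most families lie below 0 at 1 h, all 8 Cbx genes lie below 0 at 8 h, and Arid5a stands far from the rest both at 1 h and between the exposures.

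Among the 12 members that rose at 1 h, Arid5a had the highest log2 fold change. Arid5a encodes an AT-rich DNA binding protein that also binds and stabilises cytokine mRNAs. It was 3.74-fold higher at 1 h than in control cells in the authors' deposited table, a log2 fold change of 1.90 ± 0.10 (adjusted p 4.4e-76). At 8 h it was lower than in control cells, with a log2 fold change of -0.34 ± 0.12 (adjusted p 0.014) in the authors' deposited table, and for 8 h against 1 h its value there was -2.24 ± 0.10. Its rise was thus gone at the later time, and its 8 h level lay below the control level. The gene lies on GRCm38 at chr1:36307733-36324029, plus strand.

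Sirt1 encodes the nuclear sirtuin, an NAD-dependent deacetylase that acts on histones and on p53. Its log2 fold change was 0.55 ± 0.06 at 1 h (adjusted p 4.9e-17) and -0.10 ± 0.06 at 8 h (adjusted p 0.18) in the authors' deposited table. For 8 h against 1 h it fell by 0.64 ± 0.06 on the log2 scale in the authors' deposited table. Sirt7, the nucleolar sirtuin, also rose at 1 h, by 0.22 ± 0.05, and had -0.10 ± 0.05 (adjusted p 0.060) at 8 h in the authors' deposited table. Sirt3, Sirt4 and Sirt5, which work in mitochondria, had log2 fold changes between -0.24 and -0.13 at 1 h and Sirt6, a chromatin-bound sirtuin, had 0.09 ± 0.06, none of the 4 called at 1 h or 8 h in the authors' deposited table. Only Sirt5 among these 4 was called for 8 h against 1 h, where it was higher by 0.23 ± 0.10 (adjusted p 0.035) in the authors' deposited table, a call lost in their voom table (adjusted p 0.0549).

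The sequence before the start of Arid5a and of Sirt1, the 2 characterised chromatin genes with the highest rises at 1 h, is shown because members that rise within 1 h are where stimulus-responsive promoter elements are usually looked for. RefSeq gives, on GRCm38.p6, 250 bases before to 50 bases after the annotated start; Arid5a is chr1:36307483-36307782 on the plus strand and Sirt1 chr10:63338986-63339285 on the minus strand. Capitals mark TGACG, the core of the cyclic AMP response element, searched on both strands.
Arid5a: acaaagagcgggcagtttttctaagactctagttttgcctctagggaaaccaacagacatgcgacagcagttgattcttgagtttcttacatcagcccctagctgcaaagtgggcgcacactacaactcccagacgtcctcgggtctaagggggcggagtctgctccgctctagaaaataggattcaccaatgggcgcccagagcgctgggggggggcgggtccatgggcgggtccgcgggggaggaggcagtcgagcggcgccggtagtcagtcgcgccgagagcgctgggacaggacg
Sirt1: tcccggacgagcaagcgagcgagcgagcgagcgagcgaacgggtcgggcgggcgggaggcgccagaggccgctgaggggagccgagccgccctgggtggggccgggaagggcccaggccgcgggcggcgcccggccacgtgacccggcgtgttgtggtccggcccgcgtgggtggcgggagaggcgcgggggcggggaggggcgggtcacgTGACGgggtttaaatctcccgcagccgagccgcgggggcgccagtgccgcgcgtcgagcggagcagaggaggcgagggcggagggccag

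The full cyclic AMP response element TGACGTCA and the AP-1 element TGANTCA were not among the letters of these windows on either strand, and the core was found in that of Sirt1. Of the 102 members, 77 had an entry in the RefSeq table, with 102 promoters in all. The core TGACG, which also lies within the full element, was found in 28.4% of the members' promoters, 29.8% of those of genes in the authors' table and 20.8% of all 32851 promoters. The full element was found in 0.980% of the members' promoters, 2.95% of those of the table's genes and 1.79% of all. The AP-1 element was found in 5.88% of the members' promoters, 5.01% of those of the table's genes and 7.81% of all. A match of letters does not show that a factor binds there.

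The other members that rose at 1 h were spread over the families. Brd2, a BET protein that binds acetylated histones and recruits the transcription machinery, rose by 0.40 ± 0.03 (adjusted p 4.0e-33) in the authors' deposited table, and at 8 h it was still higher than in control cells, by 0.16 ± 0.03. Brd3, another BET gene, went the other way at 1 h, with a log2 fold change of -0.19 ± 0.04 in the authors' deposited table. Kdm6b, which removes repressive methyl groups from lysine 27 of histone H3, rose by 0.37 ± 0.04 (adjusted p 3.6e-19) at 1 h in the authors' deposited table, while its relative on the X chromosome, Kdm6a, fell by 0.26 ± 0.04. At 8 h neither was called: Kdm6b had -0.07 ± 0.04 (adjusted p 0.10) and Kdm6a 0.05 ± 0.04 (adjusted p 0.31) in the authors' deposited table. Setd4, a SET domain methyltransferase gene, rose by 0.52 ± 0.10 at 1 h and by 0.28 ± 0.10 at 8 h (adjusted p 0.011) in the authors' deposited table. Its 8 h call was lost in the authors' voom table, where the adjusted p was 0.0507.

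Smaller rises at 1 h were seen for Cbx2 (0.22 ± 0.08), Chd2 (0.19 ± 0.04), Kmt5b (0.17 ± 0.04) and Chd1 (0.11 ± 0.04) in the authors' deposited table. Kmt5b adds methyl groups to lysine 20 of histone H4, and Chd1 and Chd2 remodel nucleosomes in transcribed genes. Chd2 alone of these 4 was also higher than control at 8 h, by 0.21 ± 0.04 in the authors' deposited table. Brd8dc, which rose as well at 1 h, had 1.43 ± 0.25 in the authors' deposited table at a mean of only 0.56 log2 CPM. It starts 1.15 kb past the end of Brd8 on the same strand, and Brd8 itself fell by 0.18 ± 0.04 at 1 h in the authors' deposited table. Whether reads that run on from Brd8 have a part in the value of Brd8dc was not tested.

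Methyltransferases of lysine 4 of histone H3, which mark promoters and enhancers in use, were mostly lower at 1 h. Of 8 such genes, 6 fell and 0 rose at 1 h in the authors' deposited table, with a median log2 fold change of -0.23. Of all genes, 22.2% fell and 20.5% rose. These 8 are long, with a median exon length of 11441 bases. Of all 1435 genes of at least 10 kb, 932 fell and 84 rose at 1 h, with a median of -0.23 as well. Kmt2c, the catalytic subunit of an enhancer COMPASS complex, had the lowest log2 fold change of all members at 1 h, -0.50 ± 0.04 (adjusted p 1.1e-29) in the authors' deposited table, where it fell by 29.1%. Its level was also below control at 8 h, by -0.27 ± 0.04 in the authors' deposited table, though higher than at 1 h by 0.22 ± 0.04. Kmt2a, the mixed lineage leukaemia gene, fell by 0.39 ± 0.04 at 1 h and rose by 0.12 ± 0.04 at 8 h (adjusted p 0.0058) in the authors' deposited table. Its log2 fold change for 8 h against 1 h was 0.51 ± 0.04 in the authors' deposited table (adjusted p 9.3e-36). Kmt2d fell by 0.29 ± 0.05, Kmt2b by 0.26 ± 0.04 and Setd1b by 0.21 ± 0.05 at 1 h in the authors' deposited table, all catalytic subunits of COMPASS-type complexes. Setd7, a monomethylase that works alone, fell by 0.12 ± 0.04 at 1 h in the authors' deposited table. Setd1a, the remaining catalytic subunit, was not called at any time, with -0.06 ± 0.05 at 1 h and -0.04 ± 0.05 at 8 h in the authors' deposited table. Kmt2e, a divergent family member with little or no known catalytic activity, was not called at 1 h (-0.01 ± 0.04) and rose by 0.20 ± 0.04 at 8 h in the authors' deposited table.

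Some enzymes for other lysines were lower than control at both times. Setd5 (-0.24 ± 0.04), a SET domain gene linked to intellectual disability in humans, Setd2 (-0.21 ± 0.04), which methylates lysine 36 of histone H3 in transcribed genes, and Setdb1 (-0.18 ± 0.04), which silences retroelements through lysine 9, fell at 1 h in the authors' deposited table. These 3 were lower than control at 8 h as well, by -0.17 ± 0.04, -0.13 ± 0.04 and -0.13 ± 0.04 in the same order, in the authors' deposited table. Kmt5a and Kmt5c, both methyltransferases of lysine 20 of histone H4, were not called at 1 h and fell at 8 h, by 0.10 ± 0.04 and 0.20 ± 0.05 in the authors' deposited table. Setd3, now known as an actin histidine methyltransferase, rose by 0.13 ± 0.04 at 8 h in the authors' deposited table.

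Many demethylases were lower than control at 1 h and at or above it at 8 h. Of 5 demethylases of lysine 4 of histone H3, 4 fell and 0 rose at 1 h in the authors' deposited table, and at 8 h 3 rose and 0 fell. Over all genes, 22.2% fell and 20.5% rose at 1 h, and 28.2% fell and 27.4% rose at 8 h. These 5 demethylases had a median exon length of 7110 bases and a 1 h median of -0.12. All genes in the exon length deciles with medians of 6594 and 8368 bases had 1 h medians of -0.06 and -0.11. Kdm5c, an X-linked gene of this class, fell by 0.23 ± 0.03 (adjusted p 3.5e-11) at 1 h and rose by 0.20 ± 0.03 (adjusted p 1.7e-09) at 8 h in the authors' deposited table. Kdm1a, the flavin-dependent demethylase of the CoREST complex, had -0.09 ± 0.04 at 1 h and 0.15 ± 0.03 at 8 h in the authors' deposited table, and Kdm5a had -0.12 ± 0.04 and 0.10 ± 0.04. Each of these 3 was called in both comparisons, with opposite signs. Kdm5b fell at 1 h by 0.20 ± 0.04 and had 0.07 ± 0.04 (adjusted p 0.10) at 8 h in the authors' deposited table. Kdm7a, which removes methyl groups from lysines 9 and 27 of histone H3, was not called at 1 h (-0.12 ± 0.05, adjusted p 0.052) and had the highest log2 fold change of all members at 8 h, 0.49 ± 0.05 (adjusted p 9.0e-22), in the authors' deposited table.

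Among the lysine 9 and 36 demethylases, Kdm4c (-0.29 ± 0.05), Kdm3b (-0.22 ± 0.04), Kdm4a (-0.18 ± 0.04) and Kdm4b (-0.17 ± 0.05) fell at 1 h in the authors' deposited table. Only Kdm4b of these 4 was still lower than control at 8 h, by -0.27 ± 0.05 in the authors' deposited table. Kdm2a and Kdm2b, which bind unmethylated CpG islands, were called in none of the 3 comparisons.

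Deacetylases were mostly not called at 1 h. Of the 11 Hdac genes, 3 fell and 0 rose at 1 h in the authors' deposited table, and 6 fell and 3 rose at 8 h. Over all genes, 22.2% fell and 20.5% rose at 1 h, and 28.2% fell and 27.4% rose at 8 h. Hdac9, a class IIa deacetylase, was lower at both times, by -0.48 ± 0.07 at 1 h (adjusted p 7.0e-10) and -0.57 ± 0.07 at 8 h (adjusted p 5.8e-15) in the authors' deposited table, and 8 h did not differ detectably from 1 h (-0.09 ± 0.07, adjusted p 0.30). The other class IIa genes were higher at 8 h: Hdac4 rose by 0.17 ± 0.04, Hdac7 by 0.17 ± 0.05 and Hdac5 by 0.13 ± 0.05 against control in the authors' deposited table. Hdac4 had fallen at 1 h, by 0.25 ± 0.05 in the authors' deposited table, while Hdac5 and Hdac7 were not called there. The 8 h falls took in Hdac11 (-0.41 ± 0.07), the single class IV gene, Hdac8 (-0.41 ± 0.09), Hdac10 (-0.32 ± 0.08), Hdac1 (-0.17 ± 0.04) and Hdac3 (-0.12 ± 0.04) in the authors' deposited table. Hdac1 and Hdac3 are the catalytic subunits of the main nuclear corepressor complexes. Their close partner Hdac2 was called in none of the comparisons, with an interval (95%) of -0.11 to 0.03 at 8 h computed from the authors' deposited table.

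The SWI/SNF remodeler is built around 1 of 2 ATPases, Smarca4 (BRG1) or Smarca2 (BRM). Both ATPase genes fell at 1 h, Smarca4 by 0.27 ± 0.03 (adjusted p 6.5e-16) and Smarca2 by 0.20 ± 0.04 (adjusted p 7.0e-06) in the authors' deposited table. At 8 h they parted. Smarca2 rose by 0.28 ± 0.04 (adjusted p 1.7e-12) against control, and Smarca4 had 0.02 ± 0.03 (adjusted p 0.66) in the authors' deposited table. Both were higher at 8 h than at 1 h, by 0.48 ± 0.04 for Smarca2 and 0.29 ± 0.03 for Smarca4 in the authors' deposited table. A test of the difference between these 2 genes was not run.

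The scaffold subunits of the complex also had different values at 8 h. Smarcc1 (BAF155) fell by 0.33 ± 0.04 at 1 h and had 0.01 ± 0.04 at 8 h in the authors' deposited table. Smarcc2 (BAF170), a subunit known for its part in cortical size, fell at both times, by 0.23 ± 0.03 at 1 h and 0.42 ± 0.03 (adjusted p 2.8e-34) at 8 h in the authors' deposited table. The DNA binding ARID subunits were lower at 1 h, with -0.32 ± 0.04 for Arid1b, -0.31 ± 0.04 for Arid2 and -0.14 ± 0.04 for Arid1a in the authors' deposited table. Arid1b was higher than control at 8 h, by 0.15 ± 0.04, and Arid1a and Arid2 were not called there in the authors' deposited table. Of the small accessory subunits, Smarcd3 (-0.30 ± 0.05), Smarce1 (-0.18 ± 0.03) and Smarcd1 (-0.14 ± 0.04) fell at 8 h but were not called at 1 h in the authors' deposited table. Smarcd2 was called at 1 h alone, where it fell by 0.28 ± 0.07 in the authors' deposited table. The core subunit Smarcb1 was called in no comparison, with an interval (95%) of -0.06 to 0.08 at 1 h computed from the authors' deposited table. Counts of Smarce1 and of its pseudogene Smarce1-ps1, which lies at a mean of 0.13 log2 CPM, could share reads, so the pseudogene's values are uncertain.

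The remodelers outside SWI/SNF included some of the largest falls. Chd7, the gene mutated in CHARGE syndrome in humans, fell by 0.49 ± 0.04 (adjusted p 2.8e-28) at 1 h and by 0.30 ± 0.04 at 8 h in the authors' deposited table. Chd6 fell by 0.45 ± 0.04 at 1 h and 0.18 ± 0.04 at 8 h in the authors' deposited table. Chd9, of the same subfamily, fell by 0.47 ± 0.05 at 1 h, yet rose by 0.20 ± 0.04 (adjusted p 1.2e-05) at 8 h in the authors' deposited table. Its log2 fold change for 8 h against 1 h, 0.67 ± 0.05 (adjusted p 2.6e-48), was the highest of all members in the authors' deposited table. Chd8, the fourth of the subfamily and an autism gene in humans, fell by 0.16 ± 0.04 at 1 h and had 0.08 ± 0.04 (adjusted p 0.053) at 8 h in the authors' deposited table.

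The NuRD ATPases went opposite ways at 8 h. Chd4, the ATPase of most NuRD complexes, fell by 0.21 ± 0.03 at 1 h and rose by 0.11 ± 0.03 (adjusted p 0.0019) at 8 h in the authors' deposited table. Chd3 was not called at 1 h (-0.10 ± 0.05, adjusted p 0.056) and had one of the lowest values of all members at 8 h, -0.84 ± 0.05 (adjusted p 1.8e-70) in the authors' deposited table, where it fell by 44.3%. Chd5, the third NuRD ATPase, known for its expression in neurons, had 0.14 ± 0.10 (adjusted p 0.29) at 1 h and fell by 0.33 ± 0.10 at 8 h in the authors' deposited table. The ISWI pair also parted at 8 h: Smarca1 (SNF2L) fell by 0.65 ± 0.10 (adjusted p 7.3e-11), and Smarca5 (SNF2H) rose by 0.09 ± 0.04 (adjusted p 0.037) in the authors' deposited table. The SNF2-type helicases Smarcal1, which restarts stalled replication forks, and Smarcad1 fell at 1 h, by 0.27 ± 0.05 and 0.26 ± 0.04, and each had 0.00 against control at 8 h in the authors' deposited table. Chd1l, a remodeler recruited to poly-ADP-ribose at DNA damage, fell by 0.18 ± 0.07 (adjusted p 0.027) at 1 h in the authors' deposited table and was called at no other point.

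Of the ARID genes outside SWI/SNF, Arid5b, a partner of the demethylase Phf2, was not called at 1 h (-0.01 ± 0.05) and rose by 0.39 ± 0.05 (adjusted p 2.2e-15) at 8 h in the authors' deposited table. Arid4b, a Sin3 complex subunit, fell by 0.27 ± 0.04 at 1 h and 0.10 ± 0.04 at 8 h (adjusted p 0.044) in the authors' deposited table, and its relative Arid4a was called in no comparison. The 8 h call of Arid4b was lost in the authors' deposited voom table (adjusted p 0.0535). Brd3os, a gene on the strand opposite to Brd3, was not called at 1 h (0.07 ± 0.09) and rose by 0.48 ± 0.08 at 8 h in the authors' deposited table.

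The Cbx genes were lower at 8 h without exception. All 8 Cbx genes were then lower than in control cells in the authors' deposited table, with a median log2 fold change of -0.31 and a range of -1.02 to -0.22. Cbx2, Cbx6, Cbx7 and Cbx8 are among the alternative subunits through which Polycomb repressive complex 1 binds methylated lysine 27 of histone H3. Cbx2 fell by 50.8% at 8 h, a log2 fold change of -1.02 ± 0.08 (adjusted p 7.8e-35), the lowest of all members at that time in the authors' deposited table. Cbx7 fell by 0.70 ± 0.09, Cbx8 by 0.38 ± 0.08 and Cbx6 by 0.22 ± 0.03 at 8 h in the authors' deposited table. None of these 4 fell at 1 h, where Cbx2 rose and the other 3 had log2 fold changes between -0.06 and 0.08 in the authors' deposited table. The HP1 genes, whose proteins bind methylated lysine 9 in heterochromatin, fell less at 8 h than Cbx2, Cbx7 and Cbx8, and about as much as Cbx6. Cbx5 fell by 0.25 ± 0.04, Cbx1 by 0.24 ± 0.05 and Cbx3 by 0.23 ± 0.05 in the authors' deposited table. Cbx5 had already fallen at 1 h, by 0.22 ± 0.04, and did not differ detectably between the exposures (-0.03 ± 0.04, adjusted p 0.54) in the authors' deposited table. Cbx2 and Cbx8 lie side by side on chromosome 11, at chr11:119022962-119031270 and chr11:119036305-119040969 on GRCm38, and Cbx6 and Cbx7 lie close together on chromosome 15, so the 4 are not 4 separate loci.

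The methyltransferases that set the mark read by Polycomb Cbx proteins changed in opposite directions at 8 h. Ezh2, the enzyme of Polycomb repressive complex 2 in dividing cells, fell by 34.6% against control in the authors' deposited table, a log2 fold change of -0.61 ± 0.04 (adjusted p 4.0e-51). Ezh1, its relative known from non-dividing cells, rose by 0.31 ± 0.08 (adjusted p 0.00026) at 8 h in the authors' deposited table. At 1 h neither was called, with 0.03 ± 0.04 for Ezh2 and -0.08 ± 0.09 for Ezh1 in the authors' deposited table.

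Markers of dividing cells and of several other cell types were also lower than control at 8 h, the comparison in which Ezh2 and the Cbx genes fell. Without values of single samples, whether they moved together could not be seen. All 4 proliferation markers on the list fell at 8 h in the authors' deposited table, among them the cell cycle antigen Mki67 (-2.81 ± 0.06), the topoisomerase Top2a (-2.41 ± 0.05) and the sliding clamp Pcna (-0.57 ± 0.04). At 1 h, 3 of these 4 rose and 0 fell in the authors' deposited table. The precursor markers Sox2 and Nes, at means of 8.43 and 10.59 log2 CPM, had 8 h log2 fold changes of -0.09 ± 0.03 and 0.54 ± 0.04 in the authors' deposited table. All 6 oligodendrocyte lineage markers also fell at 8 h in the authors' deposited table, with a median of -0.92, and the myelin gene Mbp among them stood at a mean of 10.27 log2 CPM, so RNA of that lineage was present in these cultures. Of 6 neuron markers 4 fell at 8 h, and of 4 astrocyte markers 3 fell, in the authors' deposited table. Of the 3 ependymal markers 2 were in the authors' deposited table, and at 8 h 1 of them rose and 0 fell. Of the 6 microglia markers 2 were in the authors' deposited table at all, and of the 4 endothelial and mural markers 2. The part of these shifts in the values of the members was not tested.

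The starts of Ezh2 and Cbx7, from the enzyme and the reader side of the Polycomb pathway, are shown because both genes were among the 8 lowest members at 8 h. The RefSeq stretches on GRCm38.p6 are chr6:47594981-47595280 for Ezh2 and chr15:79932597-79932896 for Cbx7, both on the minus strand. Capitals mark an E2F element in Ezh2, searched as TTTGGCGC, TTTCCCGC, TTTCGCGC and TTTGCCGC on both strands, and the cyclic AMP response core TGACG in Cbx7.
Ezh2: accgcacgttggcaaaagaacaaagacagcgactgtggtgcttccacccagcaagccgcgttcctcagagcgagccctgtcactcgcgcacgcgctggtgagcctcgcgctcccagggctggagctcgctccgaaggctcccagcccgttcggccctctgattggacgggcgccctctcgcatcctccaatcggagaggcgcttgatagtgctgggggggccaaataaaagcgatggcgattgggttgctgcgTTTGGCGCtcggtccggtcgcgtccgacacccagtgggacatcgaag
Cbx7: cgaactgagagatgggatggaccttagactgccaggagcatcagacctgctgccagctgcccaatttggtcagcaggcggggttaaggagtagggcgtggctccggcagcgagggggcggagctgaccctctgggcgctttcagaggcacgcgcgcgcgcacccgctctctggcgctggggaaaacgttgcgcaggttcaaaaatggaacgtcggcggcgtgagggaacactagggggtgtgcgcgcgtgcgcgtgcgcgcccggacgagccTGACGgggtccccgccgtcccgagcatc

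An E2F element was found in 7 of the 102 member promoters (6.86%), those of Ezh2, Cbx3, Kmt5c, Smarcd1, Arid1a, Brd7 and Sirt4. The share was 3.82% of the promoters of genes in the authors' table and 2.26% of all promoters.

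**Figure D2:**
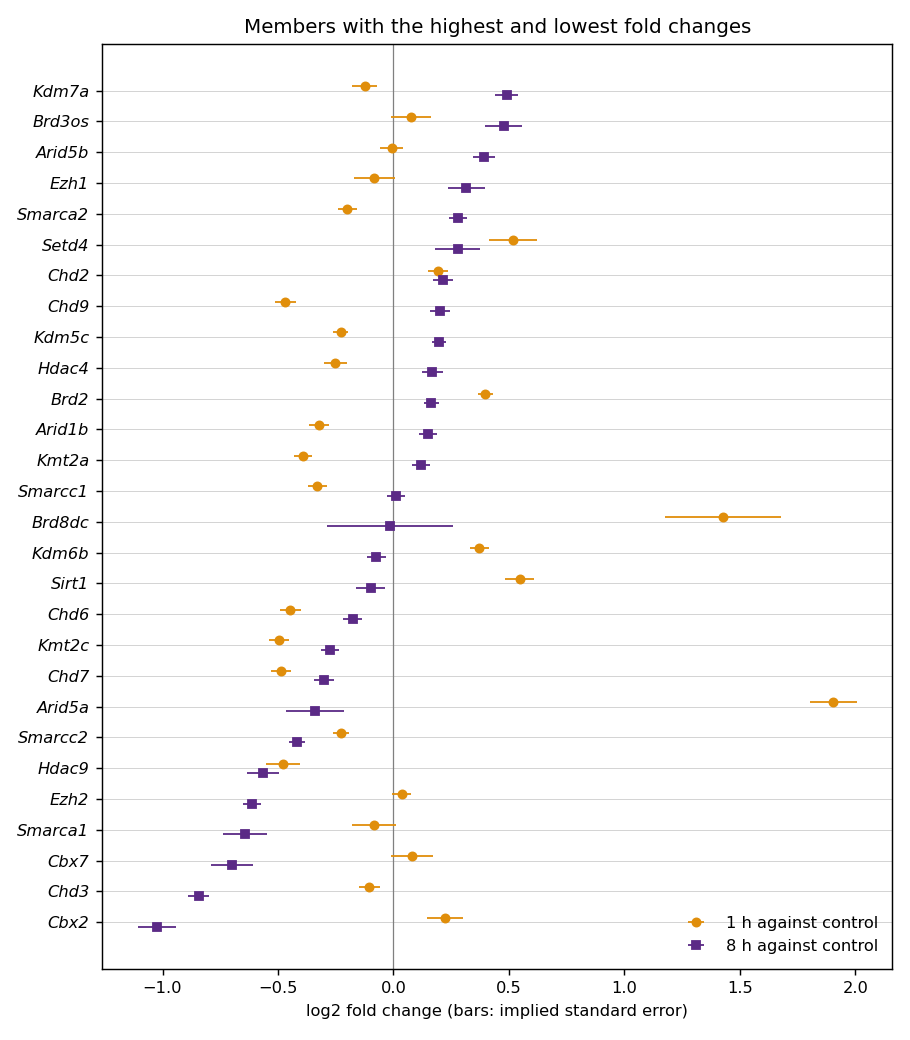
Log2 fold change against control at 1 h (orange circles, upper of each pair) and 8 h (purple squares) in the authors' deposited table, for the members named from the 8 highest and 8 lowest called in each comparison, sorted by the 8 h value; bars are ± 1 implied standard error. Arid5a, Sirt1 and Kdm6b stand right of 0 at 1 h alone, Cbx2, Chd3, Cbx7, Smarca1 and Ezh2 lie well left of 0 at 8 h and nearer to it at 1 h, and Chd9, Kmt2a and Smarca2 cross from left to right.

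The calls at both times can be set side by side, but the comparisons share control samples, so the counts are a description and no relation between them was tested. Of the 43 members that fell at 1 h, 19 (44.2%) were not called against control at 8 h, 15 (34.9%) were lower and 9 (20.9%) were higher in the authors' deposited table. Of all 3440 genes that fell at 1 h in the authors' deposited table, 33.3% were not called at 8 h, 41.1% were lower and 25.6% were higher. The 19 not called at 8 h included Smarca4, Smarcc1, Arid1a, Arid2, Brd3, Kmt2d, Kdm6a and Chd8. The 15 lower at both times included Kmt2b, Kmt2c, Setd2, Setd5, Setdb1, Chd6, Chd7, Hdac8, Hdac9, Smarcc2 and Cbx5. A further 27 members were called at 8 h and not at 1 h in the authors' deposited table, 17 lower and 10 higher. How many of all genes did so was not counted.

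Of the 102 members, 18 were called in none of the 3 comparisons of the authors' deposited table. They were Arid3a, Arid3b, Arid4a, Brd7, Hdac2, Hdac6, Kdm1b, Kdm2a, Kdm2b, Kdm8, Setd1a, Setd6, Setdb2, Sirt3, Sirt4, Sirt6, Smarcb1 and Smarce1-ps1. For well-expressed genes such as Kdm2a the interval (95%) computed from the authors' deposited table was narrow, -0.01 to 0.13 at 1 h and -0.02 to 0.11 at 8 h. For Arid3a, at a mean of 1.83 log2 CPM, values of -0.30 ± 0.15 at 1 h and -0.28 ± 0.14 at 8 h in the authors' deposited table missed the threshold with adjusted p of 0.092 and 0.076, and a difference was not detectable at this precision.

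Exon length went with the fold change at 1 h over all genes. Their median exon length in the authors' deposited table was 6952 bases, against 4180 bases over all genes, and 57 of the 102 were among the table's 3870 longest genes. Across genes, Spearman's rank correlation of the 1 h log2 fold change with exon length was -0.348 over the 102 members and -0.403 over all 15478 genes, computed from the authors' deposited table. These are descriptions across genes that share the same libraries, and genes are not independent replicates. Among those 3870 genes, 56.1% of the 57 members and 51.0% of all fell at 1 h in the authors' deposited table, while 10.5% of the members and 9.72% of all rose. Of the 32 members of at least 10 kb, 23 fell and 3 rose at 1 h in the authors' deposited table, with a median log2 fold change of -0.21, against -0.23 over all 1435 genes of that length. The members' median at 1 h was -0.03 once each gene's value in the authors' deposited table was set against the median of all genes in its exon length decile, against -0.11 before.

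At 8 h the sign over the members was the other way. The rank correlation of the 8 h log2 fold change with exon length was 0.216 over the members and -0.118 over all genes, computed from the authors' deposited table. For 8 h against 1 h it was 0.391 over the members and 0.152 over all genes in the authors' deposited table. Of the 32 members of at least 10 kb, 22 were higher and 3 lower at 8 h than at 1 h. Of all 1435 genes of that length, 764 were higher and 370 lower. Exon length also went with mean expression over the members (rank correlation 0.443 in the authors' deposited table), so these properties are not separate. The part of exon length in any member's value was not tested.

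The families differ in exon length. The Chd and Kmt genes had the longest median exon lengths, 11685 and 12598 bases in the authors' deposited table, and the Hdac and Sirt genes the shortest, 4839 and 5240 bases. After setting each gene in the authors' deposited table against its length decile, the 1 h median of the Kdm genes was -0.08 and 9 of 15 lay below their decile median, and the Kmt median was -0.06 with 6 of 8 below. The Smarc and Chd medians were each -0.05 on that scale, with 9 of 14 and 5 of 10 below. For the Hdac genes the median was -0.03 with 9 of 11 below. The Arid median on that scale was 0.03 and the Cbx median 0.09 at 1 h in the authors' deposited table. At 8 h all 8 Cbx genes lay below the median of their length decile, with a median difference of -0.31 in the authors' deposited table.

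**Figure D3:**
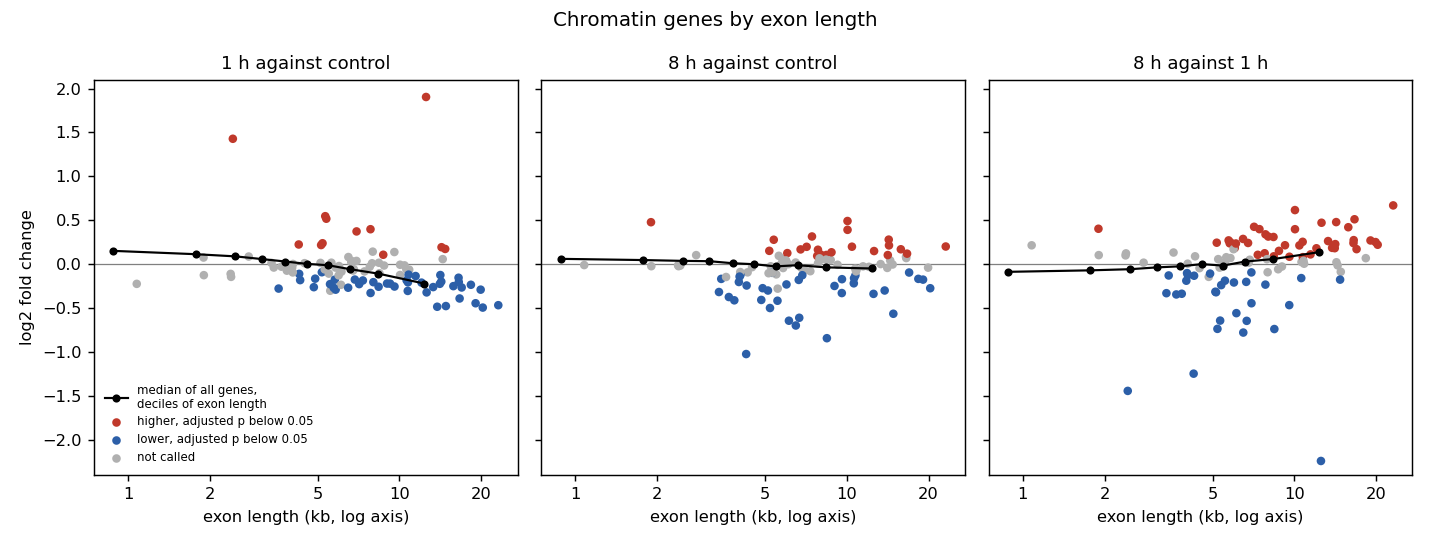
Log2 fold change of each member against exon length (kb, log axis) in the 3 comparisons of the authors' deposited table, coloured by call, with a black line for the median of all genes in deciles of exon length. At 1 h the black line descends with length and the long members lie along it, for 8 h against 1 h it climbs, and at 8 h against control it is nearly flat.

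Chromatin genes whose names the rule does not reach give the setting for these values. In 13 lists of complexes and enzyme classes outside the rule, 158 of 161 genes were found in the authors' deposited table. At 1 h 64 of the 158 fell and 32 rose, and at 8 h 74 fell and 26 rose, in the authors' deposited table. Of all genes, 22.2% fell and 20.5% rose at 1 h, and 28.2% fell and 27.4% rose at 8 h. The same shares apply beside the counts by list below. All figures on lists are counts without a test, and the lists were chosen with earlier results of these data known.

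Histone acetyltransferases, the writers opposed by the Hdac enzymes, were lower at 1 h. Of 13, 9 fell and 0 rose at 1 h in the authors' deposited table, among them Kat6a (-0.44 ± 0.04), Ncoa1 (-0.39 ± 0.04) and Crebbp (-0.31 ± 0.04). At 8 h 5 of the 13 fell and 2 rose in the authors' deposited table. Kat6a was still lower than control, by -0.08 ± 0.03 (adjusted p 0.031), while Crebbp had 0.00 ± 0.04 and Ncoa1 -0.00 ± 0.04 at 8 h in the authors' deposited table. Of the 10 subunits shared by the COMPASS complexes of Kmt2 and Setd1 enzymes, 7 fell and 1 rose at 1 h in the authors' deposited table. The large ISWI partner Bptf (-0.49 ± 0.04), the TIP60 scaffold Trrap (-0.45 ± 0.04) and the heterochromatin remodeler Atrx (-0.55 ± 0.04) also fell at 1 h in the authors' deposited table. Their lists differed at 1 h: 6 of 9 ISWI partners fell and 1 rose. Of 16 INO80, SRCAP and TIP60 genes 5 fell and 4 rose, and of 13 histone chaperones, the list of Atrx, 3 fell and 5 rose. Bptf, Trrap and Atrx each have over 10 kb of exon, and all 1435 genes of at least 10 kb had a 1 h median of -0.23. Of the 8 NuRD partners of Chd3 and Chd4, 1 rose and 0 fell at 1 h in the authors' deposited table, with values between -0.06 and 0.10.

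At 8 h several genes that work at the replication fork were far below control. Of 11 DNA methylation genes 8 fell at 8 h in the authors' deposited table, with -1.38 ± 0.05 for Uhrf1, which brings the maintenance methyltransferase to new DNA, and -0.88 ± 0.03 for that enzyme, Dnmt1. Of 13 histone chaperones 8 fell at 8 h in the authors' deposited table, with -2.01 ± 0.12 for the assembly factor subunit Chaf1b and -1.91 ± 0.13 for the H3-H4 chaperone Asf1b. Among the partners of Polycomb repressive complex 2, 5 of 9 fell and 3 rose at 8 h in the authors' deposited table, with -2.24 ± 0.13 for the accessory subunit Phf19 and 0.40 ± 0.05 for the core subunit Eed. Of 14 partners of Polycomb repressive complex 1, 8 fell and 1 rose at 8 h in the authors' deposited table, with a median of -0.14, and the core subunit Bmi1 fell by 0.15 ± 0.04. Among 17 SWI/SNF subunits outside the name rule, 9 fell and 2 rose at 8 h in the authors' deposited table. Their median log2 fold change at 8 h was -0.14, with a range of -1.41 to 0.23. Actl6a, the actin-like subunit of precursor cells, fell by 0.14 ± 0.04, close to that median and far from the largest fall of the list.

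**Figure D4:**
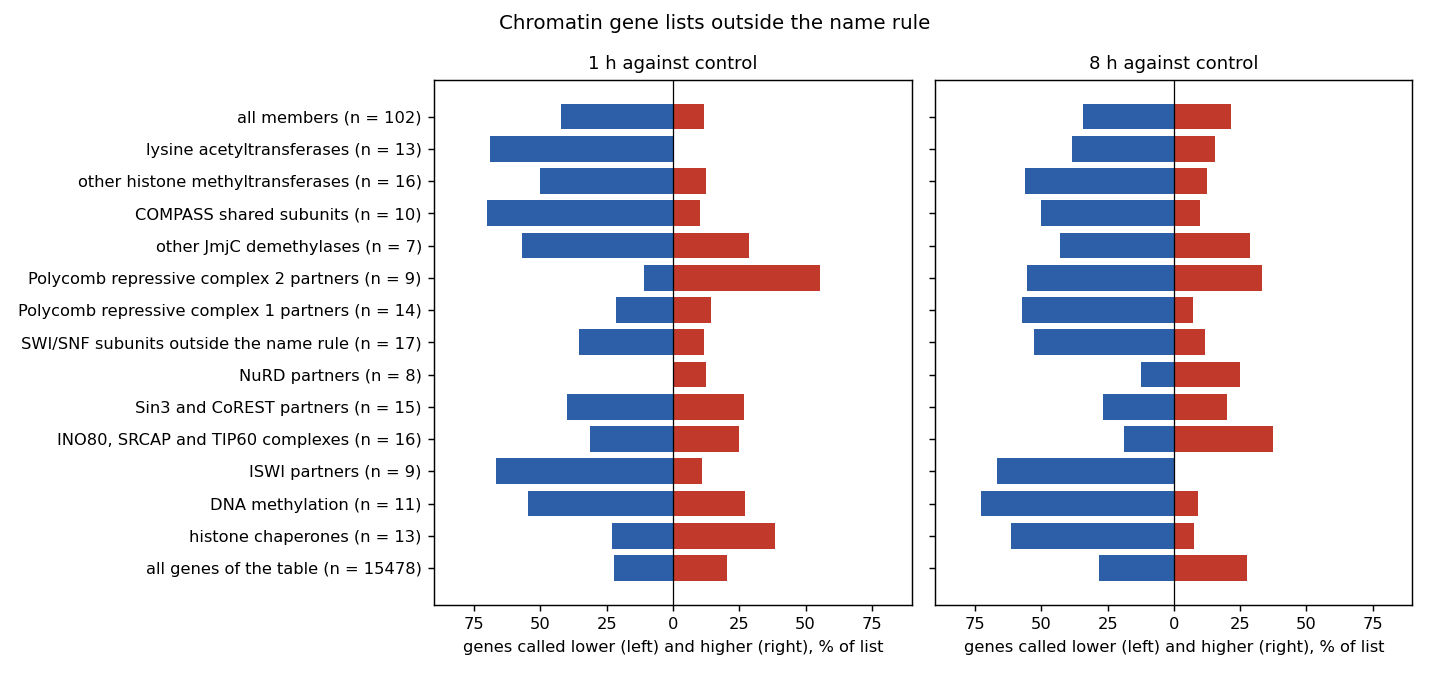
Percent of genes called higher (red, right) and lower (blue, left) at an adjusted p below 0.05 against control at 1 h and 8 h in the authors' deposited table, for the 102 members, 13 chromatin lists outside the name rule and all 15478 genes. Acetyltransferases and shared COMPASS subunits have the longest blue bars at 1 h, followed by ISWI partners, and DNA methylation genes, ISWI partners and histone chaperones at 8 h.

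By position, 22 of the 102 members overlap another gene of the authors' table on GENCODE M21 coordinates, 20 of them a gene on the other strand. Brd2, Cbx1, Cbx7, Kdm1a, Kdm5a, Kmt2a, Kmt2e, Setd7, Setdb1, Smarcc1, Smarcd1 and Smarcd3 are among these 20. The libraries were stranded, but the strand setting used for counting is not stated in these sources, so reads of the members and of such partners may have been pooled.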

How the data were processed

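Poly-A RNA was sequenced from 12 samples in 3 groups. Gene counts were made by the authors with featureCounts, per the file headers, against GRCm38, per the labels, and were tested with edgeR (generalised linear model, tagwise dispersion, likelihood ratio test). A second deposited table comes from voom and limma, per the file headers. Fold changes and mean expression (log2 CPM) are deposited in log2 units, test statistics as a score, and p-values with their Benjamini-Hochberg adjusted form, all by the authors. Depth, the samples removed as outliers, aligner, design formula and tool versions are not stated in these sources.

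The files used hold no per-sample values (0 such columns), so the planned quasi-likelihood test of counts could not be run and the authors' deposited GLM table was used as it stands, at an adjusted p below 0.05. Recomputed adjusted p-values differed from the deposited ones by at most 1.3e-15. Implied standard errors were a median of 1.10, 1.05 and 1.05 times those of the voom table over the members at 1 h, 8 h and 8 h against 1 h. Intervals (95%) and tests measure the spread between these samples as the authors modelled it.

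Some genes of these families and lists are not reported by name here, though counts hold them. Members and lists were chosen with earlier results of these data known. Named members are, in each comparison, the 8 highest and 8 lowest called and the smallest adjusted p of each family, with other members given to complete a class; outside the members, up to 3 genes per list with the smallest adjusted p, and a few more chosen after their values were seen. Chromosome positions come from GENCODE M21 (all 102 members matched) and promoters from RefSeq. The calculations of adjusted p, implied standard error and centring were tested on simulated fold changes, while the counts, medians and correlations were not. Alternatives were the voom table, an adjusted p of 0.01, a mean of at least 1 log2 CPM, centring on the median of all genes, and exon length deciles. Python 3.11.15, pandas 2.3.3, numpy 2.4.6, scipy 1.17.1 and matplotlib 3.10.9 were used. The authors' gene set tests were not used here.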

Additional observations from a re-analysis of the deposited data

Results flagged for a closer look

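For 11 of the members given by name the authors' deposited table calls changes of opposite direction at 1 h and 8 h against control, and the test of 8 h against 1 h in that table is itself past the threshold. For 9 of them, 1 h was lower and 8 h higher than control. Their log2 fold changes for 8 h against 1 h in the authors' deposited table were 0.67 for Chd9, 0.51 for Kmt2a, 0.48 for Smarca2, 0.47 for Arid1b, 0.42 for Kdm5c, 0.42 for Hdac4, 0.31 for Chd4, 0.24 for Kdm1a and 0.23 for Kdm5a. The other 2 were higher at 1 h and lower at 8 h, with -2.24 for Arid5a and -1.25 for Cbx2 for 8 h against 1 h in the authors' deposited table. A fall at 1 h with a rise at 8 h was not more common among the members than over all genes. Of the 43 members that fell at 1 h, 20.9% were higher at 8 h, against 25.6% of all 3440 genes that fell at 1 h.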

How the results depend on the processing

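Counts of members called stayed within 1.5 times under the authors' voom table, an adjusted p of 0.01, a mean of at least 1 log2 CPM and centring, with 0 calls of opposite direction. Of the members called, the voom table lost 0 of 55 at 1 h, 2 of 57 at 8 h (Setd4, log2 fold change 0.26 with adjusted p 0.0507, and Arid4b, adjusted p 0.0535) and 2 of 72 for 8 h against 1 h (Brd1 and Sirt5). At an adjusted p of 0.01, 7 were lost at 1 h (Cbx1, Cbx2, Chd1, Chd1l, Hdac8, Kdm1a and Kdm5a), 7 at 8 h (Arid4b, Arid5a, Brd1, Kdm5a, Kmt5a, Setd4 and Smarca5) and 8 for 8 h against 1 h. The 1 h median was -0.028 when set against each gene's exon length decile, and -0.11 as deposited. With genomic span in place of exon length, an alternative chosen after seeing the data, the 1 h rank correlation with the log2 fold change was -0.479, against -0.348. No paired analysis was possible because no per-sample values were present, and for the same reason no replicate could be left out. Depth cannot be judged, and values of the 2 members under 1 log2 CPM are the least precise.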
